A study of Mus musculus with 12 samples.

Results

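The genes of major histocompatibility complex (MHC) class I presentation were followed in the fat of pregnant mice. They are the class I heavy chains H2-K1 and H2-D1, their light chain B2m, the peptide transporter subunits Tap1 and Tap2, the loading factor Tapbp, and the immunoproteasome subunits Psmb8 and Psmb9. Rows were taken by gene symbol, and all 8 symbols were found among the 20632 of each library. All 8 passed the filter on low counts and stood among the 12175 genes tested. Expression was measured by 3′ RNA sequencing (QuantSeq) of the white fat around the uterus, labelled gonadal, of mice at E17.5 of pregnancy, with 12 libraries in 3 groups of 4. WT vehicle animals carry the label wildtype, Tnfrsf11a (Rank) with Foxn1 Cre-, and received vehicle. KO vehicle animals carry the label knock-out, Tnfrsf11a (Rank) with Foxn1 Cre+, and received vehicle. KO Treg animals have the same knock-out label and the treatment labelled Treg, which the labels do not describe further. Foxn1-Cre acts in thymic epithelium, so the fat cells themselves are not its target. Neither the age of the animals nor the mouse strain is stated in the labels. Each library has its own number and was taken as 1 animal. Nothing more is said about how the animals were kept apart, so a p-value measures the spread between these 12 libraries.

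Class I molecules stand on nearly all nucleated cells and show CD8 T cells short peptides from proteins made inside the cell. Proteasomes cut those proteins, the TAP transporter carries the peptides into the endoplasmic reticulum, and tapasin helps load them onto a heavy chain paired with beta-2-microglobulin. Interferons raise most genes of the pathway together, and in cells exposed to interferon the immunoproteasome subunits take the place of the constitutive ones. In fat, adipocytes, macrophages, endothelial cells and lymphocytes can all carry class I.

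Of the 8 genes, 7 lie on chromosome 17 (mm10), inside or beside the MHC. The run of Psmb9 (chr17:34181987-34187764, minus strand), Tap1 (chr17:34187553-34197225, plus strand), Psmb8 (chr17:34197721-34201454, plus strand) and Tap2 (chr17:34203527-34216321, plus strand) is compact. Tapbp (chr17:33915899-33929292, plus strand), H2-K1 (chr17:33996017-34000347, minus strand) and H2-D1 (chr17:35262730-35267499, plus strand) lie elsewhere on the chromosome. B2m is on chromosome 2 (chr2:122147686-122153083, plus strand). All positions are those of the GENCODE M21 gene models on GRCm38.

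RefSeq promoter windows (GRCm38.p6), the 250 bases before a gene's RefSeq start, were found for 7 of the 8 genes, all except Tap2. Of 2 windows of H2-K1, the one that ends at the annotated start is shown. The 4 sequences below are shown because they hold what the pathway's genes share, or do not share, before any expression value is considered. The first is chr17:34000348-34000597 on the minus strand, the second chr17:35262844-35263093 on the plus strand, and the third chr2:122147437-122147686 on the plus strand. The fourth is the stretch chr17:34187331-34187555, written on the plus strand, from which Psmb9 is read leftwards and Tap1 rightwards. It runs between the RefSeq starts of these genes, and lies inside the longer GENCODE model of Psmb9. Each is printed 5′ to 3′ in lower case, and capitals mark matches on either strand to 4 motifs: an interferon response element (GAAANNGAAA or GAANNGAAA), a kappa B element (GGGNNNNNCCC), TGACG and CCAAT.
H2-K1 promoter: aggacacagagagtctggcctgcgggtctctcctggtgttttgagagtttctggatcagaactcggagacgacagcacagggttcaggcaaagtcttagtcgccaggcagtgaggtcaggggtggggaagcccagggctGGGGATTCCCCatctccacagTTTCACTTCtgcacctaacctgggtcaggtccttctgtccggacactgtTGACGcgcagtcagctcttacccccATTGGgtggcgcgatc
H2-D1 promoter: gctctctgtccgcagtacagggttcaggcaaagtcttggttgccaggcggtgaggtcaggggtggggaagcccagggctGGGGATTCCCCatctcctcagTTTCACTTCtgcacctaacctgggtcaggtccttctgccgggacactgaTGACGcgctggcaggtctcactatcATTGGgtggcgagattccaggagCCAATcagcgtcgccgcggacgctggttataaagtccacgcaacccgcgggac
B2m promoter: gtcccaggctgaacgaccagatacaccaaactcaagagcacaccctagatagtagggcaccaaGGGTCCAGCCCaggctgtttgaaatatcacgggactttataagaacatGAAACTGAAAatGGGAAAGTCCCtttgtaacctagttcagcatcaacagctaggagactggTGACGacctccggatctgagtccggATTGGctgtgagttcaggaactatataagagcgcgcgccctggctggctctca
Psmb9 to Tap1: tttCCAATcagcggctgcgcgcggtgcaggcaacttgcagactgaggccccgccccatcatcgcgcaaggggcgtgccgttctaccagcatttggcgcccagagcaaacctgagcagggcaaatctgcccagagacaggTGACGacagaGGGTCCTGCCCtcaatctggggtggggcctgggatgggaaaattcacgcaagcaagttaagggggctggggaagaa
The H2-K1 and H2-D1 windows aligned over 177 columns, with 161 identical bases and 0 gaps (91.0%). Both hold the same kappa B and interferon element letters, GGGGATTCCCC and TTTCACTTC. The B2m window also holds matches to all 4 motifs, with TGACG and ATTGG in the same letters and GAAACTGAAA as its interferon element. The stretch between the RefSeq starts of Psmb9 and Tap1 holds the kappa B element, TGACG and CCAAT once each, and no match to the interferon element as spelled here. The Tapbp window (chr17:33919228-33919477) held CCAAT only, and that of Psmb8 (chr17:34197945-34198194) none of the 4. Both of these windows, and that of H2-D1, lie inside the longer GENCODE models given above. Among 32851 mouse promoter windows of 250 bases, 8.82% held the interferon element, 12.2% the kappa B element, 17.8% TGACG and 33.8% CCAAT. A match describes letters, and no match says only that these letters are not in the window.

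Library totals ran from 5551967 to 12972655 counts. The tissue label was borne out by 11 adipocyte markers (such as Adipoq and Plin1), which summed to 68239 to 100326 CPM (counts scaled to a common library total). Cfd and Fabp4 had the highest counts among them. The median sum was 87171 CPM for WT vehicle, 73021 CPM for KO vehicle and 87606 CPM for KO Treg, with overlapping ranges. Taken singly, 7 of the 11 had a log2 fold change above 0 in KO vehicle against WT vehicle and 4 below (median 0.09). The sum, led by its most abundant genes, therefore does not describe all 11. A set of 16 placental markers summed to 12.9 to 32 CPM in 10 libraries, against 109.9 CPM for KO vehicle 1 and 273 CPM for KO Treg 2. Smooth muscle markers also varied, from 219 to 2139 CPM over the 12 libraries, with a median of 1392 CPM for the wild types, 439 CPM for KO vehicle and 581 CPM for KO Treg. Whether these tissues contribute to the class I values was not tested. In whole tissue, fewer cells of a type and less RNA per cell cannot be told apart.

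No difference between groups larger than the spread between animals was found for any of the 8 genes. The first comparison asks how the fat of knock-outs given vehicle differs from that of wild types given vehicle. Here 0 of 8 were called by edgeR at an adjusted p of 0.05, against 0.279% of all tested genes (0.197% higher and 0.0821% lower), and 0 of 8 passed at an unadjusted p of 0.05, against 12.4%. Groups overlapped for every one of the 8, while they did not overlap for 6.51% of tested genes. The second comparison asks what the treatment labelled Treg changes in knock-outs. It called 0 of 8 (background 0.00821%, which is the single gene Dysf), with 0 of 8 at an unadjusted p of 0.05 (8.77%) and 0 of 8 without overlap (5.04%). The third sets treated knock-outs beside wild types. It called 0 of 8 (background 0.0%), with 0 of 8 at an unadjusted p of 0.05 (2.87%) and 0 of 8 without overlap (1.63%). A test for any difference among the 3 groups also called 0 of 8, against 0.0329% of all genes and 9.44% at an unadjusted p of 0.05. DESeq2 called 0 of 8 in each comparison as well, against 1.93%, 0.38% and 0.00608% of the genes it tested, and so did limma voom, against 0.361%, 0.00821% and 0.0%. The animal numbers in the labels form 2 series, a lower and a higher one, which the labels do not call a batch. All 4 KO vehicle animals belong to the lower series, while each of the other groups has 2 animals in it and 2 in the higher one, so the series and KO vehicle can be told apart only in part. With the series as a covariate, or in the lower series alone, edgeR called 0 genes in KO vehicle against WT vehicle (1474 and 1337 at an unadjusted p under 0.05) and 0 in KO Treg against KO vehicle (1013 and 802).

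The data limit how large a missed change could be. Over the 24 estimates (8 genes in 3 comparisons) the 95% intervals reached from a 0.548-fold to a 1.56-fold level. KO vehicle against WT vehicle had 5 estimates above 0 and 3 below, with a median log2 fold change of 0.0073, beside -0.0039 over all tested genes. KO Treg against KO vehicle had 1 above and 7 below, with a median of -0.16 beside -0.0018. KO Treg against WT vehicle had 3 above and 5 below, with a median of -0.13 beside -0.0040. These comparisons share animals, so their values are given side by side only.

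**Figure D1:**
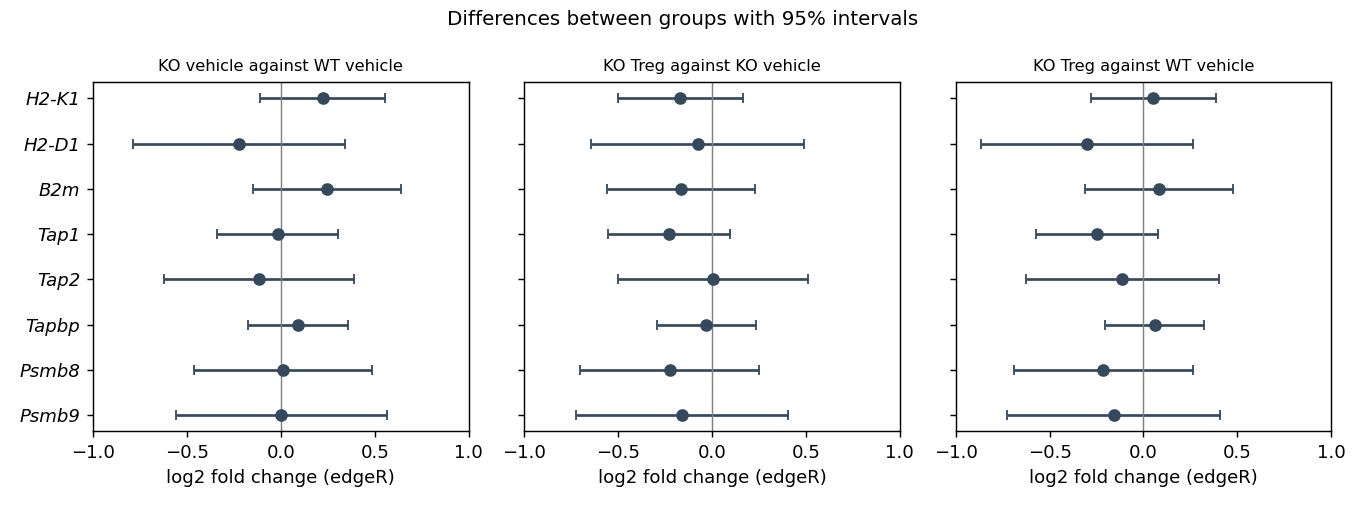
Log2 fold changes of the 8 genes in the 3 comparisons (x axis, edgeR), with 95% intervals as bars. All 24 intervals cross 0, with the lowest bound at -0.87 and the highest at 0.64.

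H2-K1 encodes a classical heavy chain, the part of the molecule that holds the peptide. Its level was 527, 505, 523 and 665 CPM in WT vehicle 1 to 4. The KO vehicle animals had 868, 647, 530.0 and 544 CPM, and the KO Treg animals 605, 582, 582 and 532 CPM. The top value belonged to KO vehicle 1, one of the animals with placental transcripts, and the other 3 KO vehicle animals lay within the range of the wild types. Group means were 555 ± 73.9 CPM for WT vehicle, 647 ± 156 CPM for KO vehicle and 575 ± 31.1 CPM for KO Treg (SD, n = 4 each). The log2 fold change of KO vehicle against WT vehicle was 0.22 ± 0.16 (SE, edgeR adjusted p = 0.621). That of KO Treg against KO vehicle was -0.17 ± 0.16 (edgeR adjusted p = 0.834). Without KO vehicle 1 and KO Treg 2 the latter estimate was 0.00097. KO Treg 2, with the most placental transcripts, was at 582 CPM, near the mean of its group.

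H2-D1, the second classical heavy chain, followed another pattern over the animals. WT vehicle 1 to 4 had 188, 430.4, 322 and 239 CPM. KO vehicle animals had 328, 259.7, 215 and 206 CPM, and KO Treg animals 250.2, 178, 184 and 345 CPM. Wild types alone spanned nearly the whole range of the 12 animals, and the groups overlapped throughout. Means were 295 ± 106, 252 ± 55.5 and 239 ± 77.6 CPM (WT vehicle, KO vehicle and KO Treg in turn). The log2 fold changes were -0.22 ± 0.26 in KO vehicle against WT vehicle (edgeR adjusted p = 0.800) and -0.08 ± 0.26 in KO Treg against KO vehicle (edgeR adjusted p = 0.969). The second estimate was 0.19 without the 2 animals with placental transcripts.

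The balance of both chains shows this without any scaling. H2-K1 gave 70.8% to 76.6% of the joint H2-K1 and H2-D1 counts in 9 of the 12 libraries. It gave 54.0% in WT vehicle 2 (95% Wilson interval 52.9% to 55.0%), 61.9% in WT vehicle 3 (60.5% to 63.3%) and 60.7% in KO Treg 4 (59.5% to 61.8%). These 3 libraries were picked out after their values were seen, and the intervals cover counting error only. They come from 2 groups, with H2-K1 between 505 and 532 CPM and H2-D1 between 322 and 430.4 CPM. Of the 50-base words in the last 300 bases of coding transcripts, 9.54% of those of H2-K1 and 13.5% of those of H2-D1 also occur in transcripts of other genes, the other heavy chain among them. Whether reads were assigned to the wrong chain was not tested.

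B2m encodes beta-2-microglobulin, the light chain that every classical heavy chain needs to reach the surface. It was the most abundant of the 8, at 584, 744, 923 and 871 CPM in WT vehicle 1 to 4. In KO vehicle it stood at 1108, 785, 998 and 815 CPM, and in KO Treg at 860.2, 726, 627 and 1089 CPM. High values were found in both knock-out groups, in KO vehicle 1 and KO Treg 4, and the lowest was a wild type. The mean of the wild types was 780.4 ± 151 CPM, that of KO vehicle 926 ± 153 CPM and that of KO Treg 825 ± 199.7 CPM (SD, n = 4 each). KO vehicle against WT vehicle gave a log2 fold change of 0.25 ± 0.19 (edgeR adjusted p = 0.647), with a 95% interval from -0.15 to 0.64. KO Treg against KO vehicle gave -0.17 ± 0.19 (edgeR adjusted p = 0.874).

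**Figure D2:**
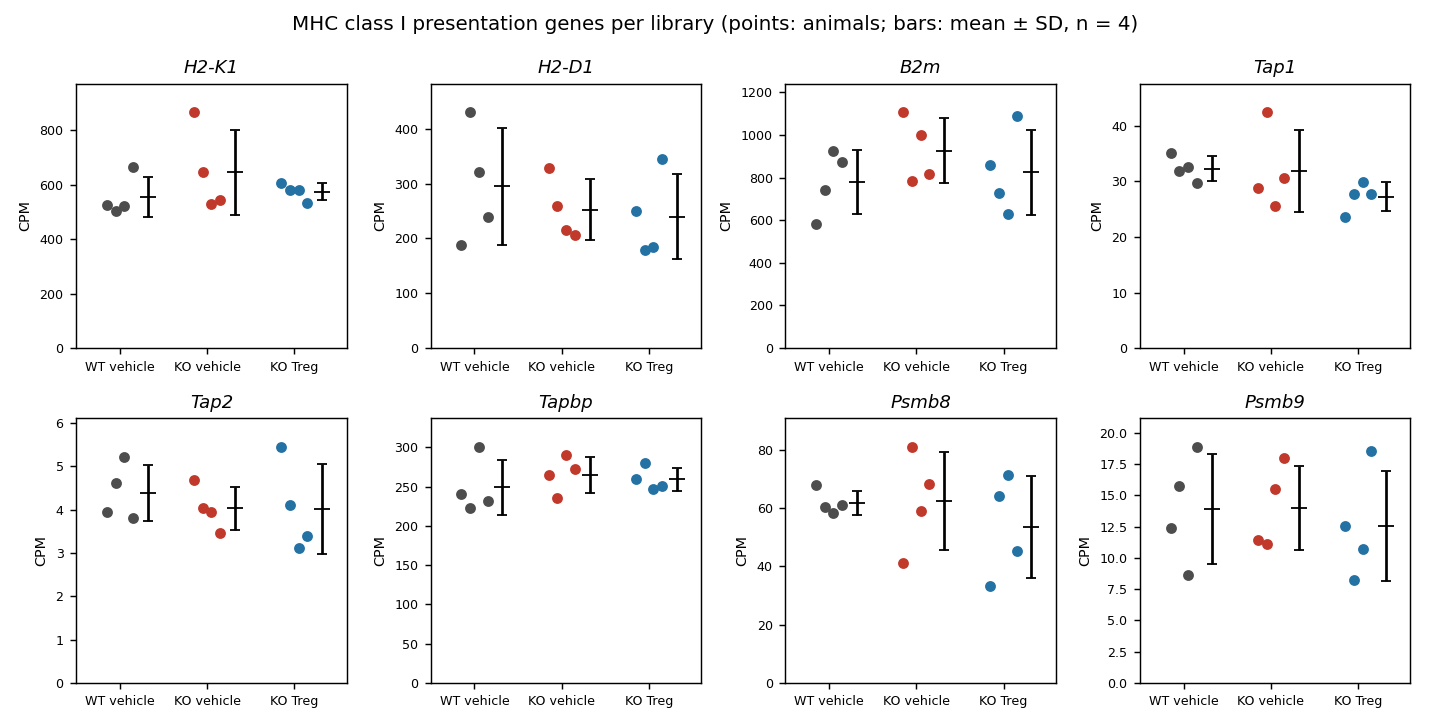
Level of each of the 8 genes (y axis, CPM, from 0) in the 12 animals by group, with points for animals and bars for mean ± SD (n = 4). The 3 groups overlap in all 8 panels. The H2-K1 point at 868 CPM is KO vehicle 1.

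Tap1 and Tap2 form the transporter that moves peptides from the cytosol into the endoplasmic reticulum. Tap1 had 35.1, 31.8, 32.5 and 29.6 CPM in the WT vehicle animals, 28.9, 42.5, 25.6 and 30.7 CPM in the KO vehicle animals, and 23.6, 27.7, 29.8 and 27.8 CPM in the KO Treg animals. Treated knock-outs reached 29.8 CPM at most, so 1 of them lay above the lowest wild type, at 29.6 CPM. KO Treg against WT vehicle gave the lowest unadjusted edgeR p of the 24 estimates, at -0.25 ± 0.15, with a 95% interval from -0.57 to 0.08 (edgeR adjusted p = 1). The corresponding value against KO vehicle was -0.23 ± 0.15 (edgeR adjusted p = 0.727). Tap1 exons overlap Psmb9 on the opposite strand, at the start of both gene models, and 4.92% of the end words of Tap1 are shared with Tap2.

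Tap2 was the scarcest member, with 20 to 49 counts per library. Its level was 3.94, 4.61, 5.21 and 3.80 CPM in the WT vehicle animals, 4.68, 4.03, 3.94 and 3.45 CPM in the KO vehicle animals, and 5.45, 4.11, 3.11 and 3.40 CPM in the KO Treg animals. The highest and the lowest animal were both treated knock-outs. Estimates ran from -0.12 ± 0.24 (KO vehicle against WT vehicle, edgeR adjusted p = 0.897) to 0.0050 ± 0.24 (KO Treg against KO vehicle, edgeR adjusted p = 0.997). Counting noise alone would give a spread of 0.25 on the log2 scale, as large as that measured within groups, so animal-to-animal variation of Tap2 was not detectable at this depth.

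Tapbp encodes tapasin, which holds empty class I molecules at the transporter. It had 240.4, 223, 301 and 232 CPM in the WT vehicle animals, 264, 235, 289.9 and 272 CPM in the KO vehicle animals, and 259, 280.3, 248 and 251 CPM in the KO Treg animals. It varied least of the 8 between animals, with a standard deviation within groups of 0.14 on the log2 scale. KO vehicle against WT vehicle gave 0.09 ± 0.12 (edgeR adjusted p = 0.833) and KO Treg against KO vehicle -0.03 ± 0.12 (edgeR adjusted p = 0.973). The 95% intervals of both, and of KO Treg against WT vehicle, stayed between 0.815-fold and 1.28-fold. Tapbp shares exons with Zbtb22 on the same strand, and 5.07% of its end words. That share counts distinct words and not reads, and how many Tapbp counts it touches was not tested.

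Psmb8 and Psmb9 are catalytic subunits of the immunoproteasome, which cuts peptides with ends that suit class I. Psmb8 stood at 67.7, 60.2, 58.2 and 61.1 CPM in the WT vehicle animals, at 41.2, 81.0, 59.0 and 68.2 CPM in the KO vehicle animals, and at 33.1, 63.9, 71.3 and 45.3 CPM in KO Treg. Wild types lay close together, while both knock-out groups reached further down and further up. KO vehicle against WT vehicle gave 0.01 ± 0.22 (edgeR adjusted p = 0.993), and KO Treg against KO vehicle -0.23 ± 0.22 (edgeR adjusted p = 0.847). A test of the difference in spread was not run.

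Psmb9 had 12.4, 15.8, 8.62 and 18.9 CPM in the WT vehicle animals, 11.4, 11.1, 15.5 and 18.0 CPM in the KO vehicle animals, and 12.6, 8.22, 10.7 and 18.6 CPM in the KO Treg animals. Each group held 1 animal at 18.0 to 18.9 CPM and the group means were 13.9 ± 4.41, 14.0 ± 3.34 and 12.5 ± 4.41 CPM in that order. The estimate for KO vehicle against WT vehicle was 0.0024 (SE 0.27, edgeR adjusted p = 0.999), and for KO Treg against KO vehicle -0.16 ± 0.27 (edgeR adjusted p = 0.924). Psmb9 exons overlap those of Tap1 only at the start of both gene models, while 3′ libraries read transcript ends. Of the end words of Psmb9, 0 occur in transcripts of other genes. The strand setting of the counting is not given, so any reads within the overlap cannot be told apart. Their number was not tested.

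In the assembled particle Psmb8 takes the place of Psmb5, Psmb9 that of Psmb6, and Psmb10 that of Psmb7. The ratio of counts within a library needs no scaling, but both ends were counted without a correction for length. Psmb5 had 6.86 to 14.9 times the counts of Psmb8 in the 12 libraries, with group means of 515 to 553 CPM. Psmb6 had 14.3 to 36.4 times the counts of Psmb9. The remaining pair ran the other way, with Psmb10 at 1.45 to 3.29 times the counts of Psmb7. Psmb7 itself had only 19.2 to 37.9 CPM, against 235 to 327 CPM for Psmb6. How completely the end of each transcript was captured and counted was not tested, so these ratios need not be ratios of transcripts. The lowest Psmb8 to Psmb5 ratio was 0.0670 in KO Treg 1 and the highest 0.146 in KO vehicle 2, with wild types from 0.0962 to 0.124. Of 9 two-sided exact permutation tests of these log2 ratios (3 pairs in 3 comparisons, 70 arrangements, smallest possible p = 0.0286), none passed. The lowest was Psmb10 over Psmb7 in KO vehicle against WT vehicle, with a difference of 0.37 in log2 ratio (exact permutation p = 0.171, 0.771 after Benjamini-Hochberg adjustment over the 9). The other 8 adjusted values were 0.771 to 0.800.

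**Figure D3:**
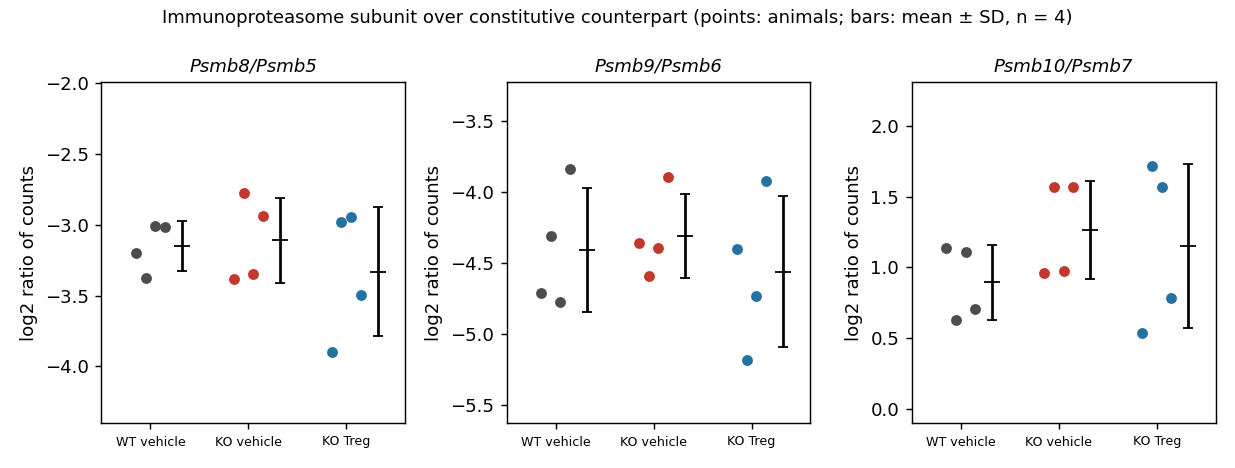
Log2 ratio of counts (y axis) of each immunoproteasome subunit to its constitutive counterpart, with a point for each animal and bars for mean ± SD (n = 4 per group). Psmb8 and Psmb9 lie below 0 and Psmb10 above 0 in all 12 animals, and the groups overlap in all 3 panels.

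Ranked by CPM, which for 3′ reads counts transcript ends with no correction for length, the order over 12 animals was B2m, H2-K1, H2-D1, Tapbp, Psmb8, Tap1, Psmb9 and Tap2. B2m was above H2-K1 in 12 of 12 animals, by 1.43 times in the means, although their ranges overlapped. H2-D1 and Tapbp did not differ beyond their spread, with H2-D1 the higher in 6 of 12. Psmb8 exceeded Tap1 in 12 of 12, also with overlapping ranges. The other 4 neighbouring pairs, H2-K1 and H2-D1, Tapbp and Psmb8, Tap1 and Psmb9, and Psmb9 and Tap2, had ranges that did not meet. The sum of all 8 was 1658 to 2654 CPM, with the lowest in WT vehicle 1 and the highest in KO vehicle 1.

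The genes also differed in how much they varied. The biological coefficient of variation in the edgeR fit was 0.269 for H2-D1, 0.260 for Psmb9, 0.228 for Psmb8 and 0.207 for B2m, above the median of 0.192 over all tested genes. Tap2 was close to that median (0.194), although its spread did not exceed counting noise, and H2-K1 (0.181), Tap1 (0.160) and Tapbp (0.151) were below it. The group labels accounted for 4.51% (Psmb9) to 26.6% (Tap1) of the sum of squares of the log2 levels. For the abundant genes counting hardly mattered: it gave 0.350% of the variance within groups for B2m and 0.542% for H2-D1, against 10.6% for Psmb9 and 19.7% for Tap1.

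Levels of the 8 genes were not shown to move together from animal to animal. Of the 28 pairwise Pearson correlations of log2 CPM over the 12 animals, 12 were above 0, and the median was -0.10 (range -0.59 to 0.71). No pair passed after Benjamini-Hochberg adjustment over the 28 (permutation test with 100000 resamples, lowest adjusted p = 0.290), and 2 had an unadjusted p under 0.05. The strongest was Tap1 with Psmb8, at r = 0.71 (permutation p = 0.010, adjusted 0.290) and Spearman's rho = 0.60 (permutation p = 0.042). Leaving out the 2 animals farthest from the median of Tap1 gave r = 0.35. That step also narrows the range of Tap1, so whether the relation rests on those animals cannot be told. Without the 2 animals with placental transcripts r was 0.78 (permutation test, adjusted p = 0.279). In deviations from group means r was 0.66 (permutation p = 0.057, adjusted 0.342), and 0.79 without the 2 farthest animals. The next was B2m with Psmb8, which ran in opposite directions, at r = -0.59 (permutation p = 0.042, adjusted 0.507) and rho = -0.71 (permutation p = 0.011, adjusted 0.317), and -0.54 without the 2 animals farthest from the median of B2m.

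Pairs of genes that are linked by promoter, position or product gave different values. H2-K1 and H2-D1, with like promoters, gave r = 0.06 (permutation p = 0.867) and rho = -0.13 (permutation p = 0.70), and -0.38 without the 2 farthest animals. Tap1 and Psmb9, on either side of the stretch printed above, gave r = -0.19 (permutation p = 0.572) and rho = -0.17 (permutation p = 0.602), and -0.16 without the 2 farthest. H2-D1 and B2m, which form 1 molecule, gave r = 0.54 (permutation p = 0.072) and rho = 0.59 (permutation p = 0.049), and 0.76 without the 2 farthest, with adjusted values of 0.507 and 0.455. Its r was the second highest of the 28, and in deviations from group means the highest, at 0.67 (permutation p = 0.048, adjusted 0.342). Farther from 0 in those deviations were B2m and Psmb8, at -0.71 (permutation p = 0.020, adjusted 0.342), and Tap2 and Psmb8, at -0.670 (permutation p = 0.057, adjusted 0.342). H2-K1 and B2m, which also form 1 molecule, gave r = 0.35 (permutation p = 0.275) and rho = 0.22 (permutation p = 0.485), and -0.16 without the 2 farthest. Tap1 and Tap2 gave r = -0.14 (permutation p = 0.666), and Psmb8 and Psmb9 r = -0.11 (permutation p = 0.732). Within the 8 animals of the lower series r was 0.25 for H2-K1 and H2-D1, -0.07 for Tap1 and Psmb9, 0.33 for H2-D1 and B2m, 0.75 for Tap1 and Psmb8, and -0.52 for B2m and Psmb8. There H2-K1 and B2m gave r = 0.61, Tap1 and Tap2 -0.44, and Psmb8 and Psmb9 0.04. The value farthest from 0 in that series, picked after the values were seen, was -0.83 for Tap2 and Psmb8. Over all 12 animals that pair gave r = -0.54 (permutation p = 0.070, adjusted 0.507). The higher series holds 4 animals, too few for a correlation.

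**Figure D4:**
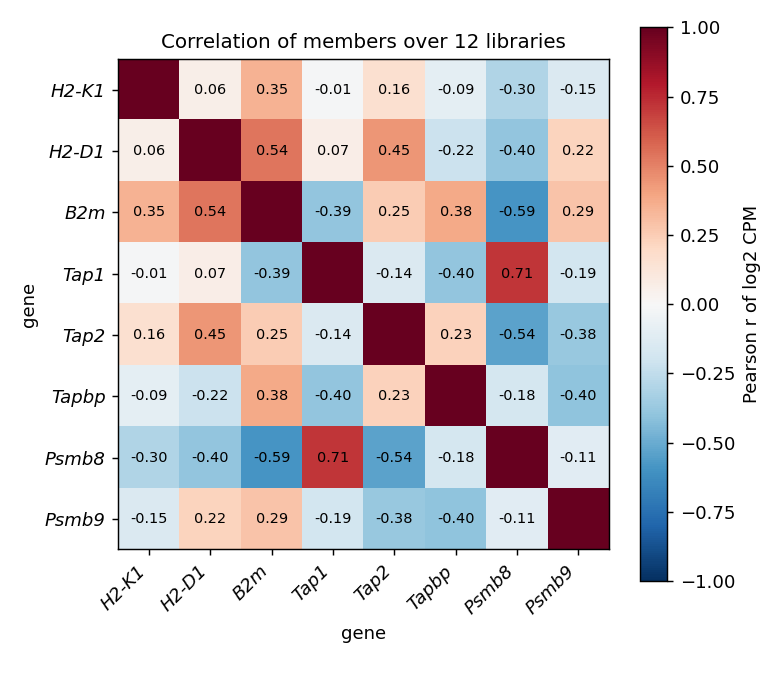
Pearson correlation of log2 CPM (colour and printed value, from -1 to 1) for the 28 pairs of the 8 genes over 12 animals. Values lie between -0.59 (B2m and Psmb8) and 0.71 (Tap1 and Psmb8), and 12 of the 28 are above 0.

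**Figure D5:**
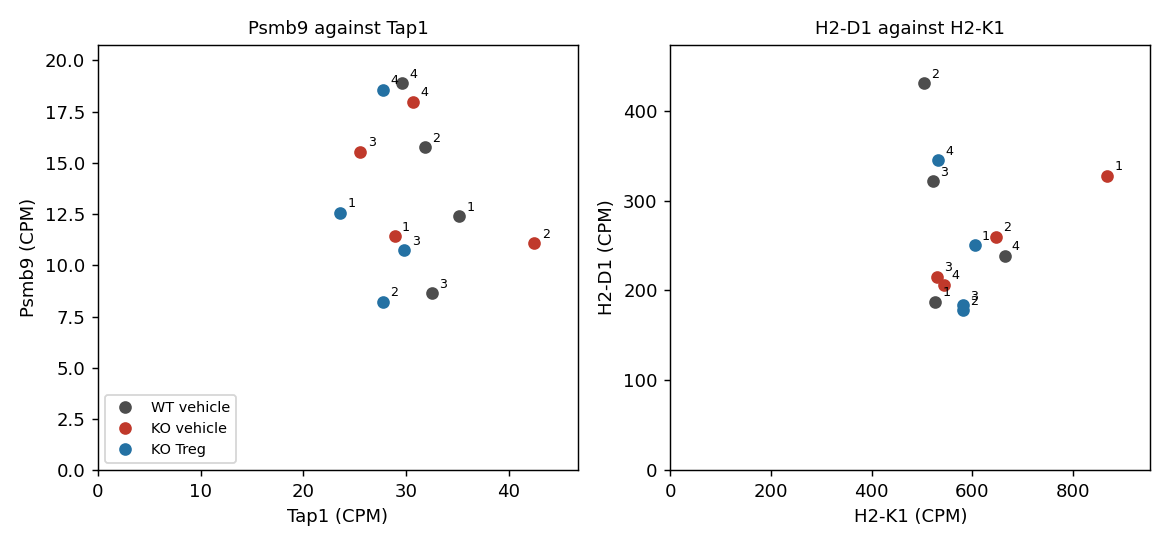
CPM of Psmb9 against Tap1 and of H2-D1 against H2-K1 (both axes in CPM, from 0), with a point for each animal, coloured by group and numbered by replicate. Neither pair lies along a line (r = -0.19 and 0.06). WT vehicle 2 and 3 and KO Treg 4 stand high in H2-D1 at ordinary H2-K1, and KO vehicle 1 stands high in H2-K1.

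The wider pathway was read from 10 further lists of genes, with 103 genes tested, of which edgeR called 0 in each of the 3 comparisons and limma voom also 0. At an unadjusted p under 0.05 edgeR had 9 in KO vehicle against WT vehicle, 7 in KO Treg against KO vehicle and 1 in KO Treg against WT vehicle, beside 12.4%, 8.77% and 2.87% of all tested genes. DESeq2 called Cxcl10 in the first, 1 of 110 listed genes it tested (1.93% over all genes). It called Hspa5 in the second, 1 of 115 (0.38%), and 0 of 124 in the last. Among the 6 partners of the immunoproteasome, 3 lay above and 3 below 0 in KO vehicle against WT vehicle, and 0 had an unadjusted p under 0.05. The activator subunit Psme2 was at 112 ± 29.7, 127 ± 20.8 and 111 ± 23.5 CPM in WT vehicle, KO vehicle and KO Treg. Psmb10 was at 54.0 ± 7.26, 60.7 ± 8.39 and 59.5 ± 16.2 CPM. The other activators Psme3 and Psme4 had log2 fold changes of 0.13 and -0.11. Of the 3 constitutive counterparts and 11 other subunits of the proteasome core, 0 had an unadjusted p under 0.05 in any comparison. The core subunit Psmb3 had the lowest, at -0.24 ± 0.13 in KO Treg against KO vehicle (edgeR adjusted p = 0.658).

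Factors that trim and load peptides include general chaperones of the endoplasmic reticulum. Of 11, 8 lay above 0 in KO vehicle against WT vehicle (median 0.14), with 1 at an unadjusted p under 0.05 (12.4% over all tested genes) and 3 whose groups did not overlap (6.51%). Of those 3, Hspa5 and Canx were higher in KO vehicle and Npepps was lower. Npepps had 165 to 182 CPM in WT vehicle and 143 to 157 CPM in KO vehicle. In KO Treg against KO vehicle 9 of 11 lay below 0 (median -0.16), with 3 at an unadjusted p under 0.05 (8.77%) and 3 without overlap (5.04%). Hspa5, or BiP, had 1105, 1218, 796 and 1291 CPM in WT vehicle. It had 1659.5, 1998, 1378 and 1559.9 CPM in KO vehicle, above every animal of both other groups, and 798, 1045, 1178 and 965 CPM in KO Treg. Its log2 fold changes were 0.58 ± 0.17 in KO vehicle against WT vehicle (edgeR adjusted p = 0.157) and -0.73 ± 0.17 in KO Treg against KO vehicle (edgeR adjusted p = 0.248, DESeq2 adjusted p = 0.0239). The lectin chaperones Calr (-0.42 ± 0.15, edgeR adjusted p = 0.419) and Canx (-0.34 ± 0.13, edgeR adjusted p = 0.465) were also lower without overlap in KO Treg against KO vehicle. All 3 help proteins fold in general, and none passed with edgeR. Erap1, the aminopeptidase that trims class I peptides, was at 24.9 ± 1.18, 22.2 ± 2.23 and 20.2 ± 3.09 CPM.

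Of 25 non-classical and class I-like chains, 11 were tested and 5 had 0 counts in all 12 libraries: H2-Q6, H2-Q7, H2-T22, H2-L and Raet1e. The H2-Q and H2-T chains resemble each other closely, and the part of read assignment in their counts was not tested. In KO vehicle against WT vehicle 2 lay above 0 and 9 below, with 0 at an unadjusted p under 0.05. H2-Q10, a secreted chain, was at 45.8, 37.1, 19.8 and 14.3 CPM in the WT vehicle animals, 4.0, 6.10, 28.4 and 4.06 CPM in the KO vehicle animals, and 30.1, 13.1, 5.75 and 31.0 CPM in the KO Treg animals. Its estimate was -1.48 ± 0.76 in KO vehicle against WT vehicle (edgeR adjusted p = 0.479), with KO vehicle 3 inside the range of the wild types. H2-T23, the ligand of NKG2A receptors, had 4 to 38 counts per library. Cd1d1, which presents lipids, was at 137 ± 37.9, 146 ± 45.6 and 176 ± 53.6 CPM, and Mr1, which presents vitamin metabolites, at 7.08 ± 2.25, 5.34 ± 2.11 and 7.40 ± 1.91 CPM.

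Among 15 genes of class I transcriptional control, 9 lay above 0 in KO vehicle against WT vehicle (median 0.08) and 12 below 0 in KO Treg against KO vehicle (median -0.09). In KO vehicle against WT vehicle 1 of the 15 had an unadjusted p under 0.05, beside 12.4% of all tested genes. That was Nlrc5, the class I transactivator, the only one in any of the comparisons. It had 3.86, 4.18, 2.87 and 7.22 CPM in the WT vehicle animals, 7.08, 10.3, 8.22 and 8.12 CPM in the KO vehicle animals, and 5.10, 6.97, 7.77 and 4.98 CPM in the KO Treg animals. WT vehicle 4 lay just above the lowest KO vehicle animal. Its log2 fold change was 0.89 ± 0.26 in KO vehicle against WT vehicle (edgeR adjusted p = 0.161), while that of H2-K1, as given above, was 0.22. Stat2 and Rela had estimates of 0.27 and 0.18 in KO vehicle against WT vehicle, with edgeR adjusted p of 0.618 and 0.629.

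Ifng, which encodes interferon gamma, had 0 counts in all 12 libraries, as did Ifnb1, Ifna2, Ifna4 and Ifnl2. At these depths 3 counts, the limit that 0 allows, stand for 0.231 to 0.540 CPM. The receptor chain Ifngr1 was at 255 ± 66.6, 288 ± 50.6 and 248 ± 11.3 CPM. The inhibitor Socs1 was at 4.92 ± 1.67, 5.75 ± 1.77 and 3.41 ± 1.19 CPM. It was the lone member of its 9 tested genes with an unadjusted p under 0.05, in KO Treg against KO vehicle (-0.75 ± 0.33, edgeR adjusted p = 0.523). Of all tested genes 8.77% had such a p in KO Treg against KO vehicle. The kinases Jak2 and Tyk2 had estimates of -0.18 and -0.20 in that comparison.

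Interferon-stimulated genes did not point one way. Of 27 tested of 30, 10 lay above and 17 below 0 in KO vehicle against WT vehicle (median -0.09), with 6 at an unadjusted p under 0.05, beside 12.4% of all tested genes, and 0 called. The chemokine Cxcl10 had 1.69, 0.429, 0.359 and 1.27 CPM in the WT vehicle animals, 5.37, 3.41, 3.83 and 7.41 CPM in the KO vehicle animals, and 0, 2.63, 3.89 and 1.46 CPM in the KO Treg animals. All KO vehicle animals lay above all wild types (2.31 ± 0.69, 95% interval 0.84 to 3.79, edgeR adjusted p = 0.169, DESeq2 adjusted p = 0.0317), with as few as 2 counts in a wild type. The related Cxcl9 gave 0.54 ± 0.16 (edgeR adjusted p = 0.165), whereas Igtp, an interferon-inducible GTPase, gave -0.67 ± 0.22 (edgeR adjusted p = 0.186). Irf7 was at 15.6 ± 1.24 CPM in KO Treg and 10.1 ± 1.47 CPM in KO vehicle, without overlap (0.63 ± 0.19, edgeR adjusted p = 0.339).

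Class II presentation, the route to CD4 T cells, had 7 tested genes. All 7 lay above 0 in KO vehicle against WT vehicle (median 0.27) and all 7 below 0 in KO Treg against KO vehicle (median -0.23), with 0 at an unadjusted p under 0.05 in either. H2-Aa was at 107 ± 25.4, 134 ± 35.6 and 108 ± 24.3 CPM, H2-Ab1 at 76.9 ± 15.3, 87.7 ± 18.9 and 76.2 ± 7.51 CPM. H2-DMb1, which edits class II peptides, and the transactivator Ciita had estimates of 0.27 and 0.65 in KO vehicle against WT vehicle. Whether the class I and class II lists differ was not tested.

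Leukocyte markers lay mostly on the same sides of 0. Of 7, 6 lay above 0 in KO vehicle against WT vehicle (median 0.34) and 6 below 0 in KO Treg against KO vehicle (median -0.41), with 0 called. At an unadjusted p under 0.05 were 3 in the first (12.4% over all tested genes) and 2 in the second (8.77%). Summed, they reached 203 to 294 CPM among wild types, 263 to 421 CPM among KO vehicle and 201 to 321 CPM among KO Treg animals. Of 10 macrophage markers 9 lay above and 8 below 0 in those comparisons, with sums of 853 to 994, 928 to 1265 and 808 to 1191 CPM. The 13 T and NK cell markers summed to only 6.62 to 24 CPM, and Cd8a, the co-receptor that binds class I, had 0 to 21 counts. Their part in the class I values was not tested. Of 14 class I receptors of T and NK cells, 3 were tested and 0 called, and Lilrb4 was at 1.49 ± 0.510, 3.21 ± 2.26 and 1.98 ± 0.601 CPM. Pirb and Klrc1 had estimates of 0.19 and 0.20 in KO vehicle against WT vehicle.

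The genes outside the 8 whose levels were most like theirs, by the median Pearson r with the 8 over the 12 animals, were Fkbp7 and Smg5 (0.42 each), Arpc2, Rap2b and Hdac1 (0.40 each), and Slc10a3, Exoc2, Ifi204, Eef1e1 and Atxn3 (0.39 each). None was alike to all 8. Fkbp7, for example, had r = 0.67 with B2m and -0.46 with Psmb8, and Ifi204 had 0.82 with Tap2 and -0.81 with Psmb8. These values were picked as the highest among all tested genes and carry no test.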

How the data were processed

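Total RNA of the fat of 12 animals was made into QuantSeq 3′ libraries, per the labels' protocols. The deposited values are the authors' raw counts of reads per gene symbol. The submitters' processing notes name BWA 0.7.12, SAMtools 1.3.1, TopHat2 2.1.1, HTSeq 0.6.1 and the build mm10. Annotation, strand setting and read length are not stated in the sources used here. The 12 totals spanned 5551967 to 12972655 counts, so 3 counts stand for 0.231 to 0.540 CPM, a limit of counting error only.

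Genes passing filterByExpr (12175) were TMM-scaled and compared with the quasi-likelihood test of edgeR 4.0.16 (R 4.3.3), with the 3 groups in 1 fit, no covariate, and Benjamini-Hochberg adjustment over all tested genes at 0.05. For log2 CPM the prior count was 2. Alternatives were RLE and upper quartile scaling, no filter, DESeq2 1.42.0, limma voom (3.58.1), fits of 2 groups, the animal number series, and leaving out libraries. Correlations and ratios were tested by permutation in Python 3.11.15, with ranks and Benjamini-Hochberg adjustment from scipy 1.17.1. Promoters came from RefSeq tables, positions from GENCODE M21, and the 50-base words from its transcripts.

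The members and gene lists were chosen with earlier results of these data known. Outside the 8 genes, the text names the constitutive counterparts, Psmb10, up to 4 genes of smallest p in each pathway list, the 10 genes most like the members, and genes with 0 counts. Npepps, and the marker genes and libraries singled out, were chosen after their values were seen.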

Additional observations from a re-analysis of the deposited data

Results flagged for a closer look

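H2-K1 in WT vehicle 4, at 665 CPM, stood apart from the other wild types, which had 505 to 527 CPM. Its gap to the nearest of them was 0.862 of the whole range of the group, above the Dixon critical value for 4 samples. Of 36 groups of 4 checked in this way (levels of the 8 genes, the 3 subunit ratios and the H2-K1 share, in 3 groups each), it was the only one past that value, and chance does so in about 5% of groups. Without WT vehicle 4 the H2-K1 estimate for KO vehicle against WT vehicle was 0.32 on the log2 scale (edgeR adjusted p = 0.396), against 0.22 with all libraries. Leaving out 1 library at a time gave 0.043 to 0.32.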

How the results depend on the processing

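Under every alternative run, 0 of the 8 genes were called in each comparison (lowest edgeR, DESeq2 or voom adjusted p of any estimate 0.396). Of 504 estimates of the 24 gene and comparison pairs under alternatives, 456 kept the sign and 48 changed it, and 12 of the 24 pairs kept their sign throughout. None of the estimates that turned was above 0.22 in size at first, and the cause was not tested. Without KO vehicle 1 and KO Treg 2, H2-K1 (0.00097) and H2-D1 (0.19) turned in KO Treg against KO vehicle, Tap1 (0.024) in KO vehicle against WT vehicle, Psmb9 over Psmb6 (0.056) in KO Treg against WT vehicle, and the correlation of H2-K1 with H2-D1 (r = -0.31). With voom, H2-D1 (0.018) and Tap2 (-0.018) turned in KO Treg against KO vehicle. In the lower number series alone, Tap2 turned in KO Treg against WT vehicle (0.17), Tapbp in KO Treg against KO vehicle (0.046) and Psmb8 in KO vehicle against WT vehicle (-0.048). Psmb9 in KO vehicle against WT vehicle turned with DESeq2 (-0.0064), RLE (-0.0071), the lower series (-0.016), no filter (-0.0035), 2 groups (-0.0051) and upper quartile scaling (-0.0072).

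Leaving out 1 library at a time gave these ranges where a sign turned. In KO vehicle against WT vehicle they were -0.40 to 0.017 for H2-D1, -0.20 to 0.065 for Tap1, -0.15 to 0.16 for Psmb8, -0.17 to 0.18 for Psmb9, -0.070 to 0.13 for Psmb8 over Psmb5 and -0.042 to 0.29 for Psmb9 over Psmb6. In KO Treg against KO vehicle they were -0.24 to 0.012 for H2-K1, -0.29 to 0.080 for H2-D1, -0.16 to 0.12 for Tap2, -0.070 to 0.027 for Tapbp, -0.40 to 0.0036 for Psmb9 and -0.30 to 0.089 for Psmb10 over Psmb7. In KO Treg against WT vehicle they were -0.079 to 0.20 for B2m, -0.41 to 0.019 for Psmb9, -0.31 to 0.0095 for Psmb8 over Psmb5 and -0.37 to 0.056 for Psmb9 over Psmb6.

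Counts of called genes over all tested genes changed with the setting. KO vehicle against WT vehicle called 34 genes, 250 with DESeq2, 3 without the placental libraries, and 0 in the lower series or with the series as a covariate. With 1 library left out it called 1 (when KO vehicle 1, KO vehicle 2 or WT vehicle 3 was dropped) to 125 (without WT vehicle 4). KO Treg against KO vehicle called 1 gene, 54 with DESeq2, and 0 with RLE, the lower series, the covariate, 2 groups, or without the placental libraries, and 0 to 0 with a library left out. KO Treg against WT vehicle called 0, and 1 with DESeq2. The test over 3 groups called 4 genes, 185 with DESeq2, 19 with no filter, 2 with upper quartile scaling, 0 in the lower series, with the covariate or without the placental libraries, and 0 to 32 (without KO Treg 1) with a library left out. No paired analysis was possible because the labels give the libraries of the 3 groups no shared replicate numbers. Depth limits Tap2 and Psmb9 most, with 20 to 49 and 48 to 177 counts per library.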
